A study of Homo sapiens with 18 samples.

Results

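Semaphorins are secreted or membrane-bound proteins that steer cells and their processes, and plexins are the receptors that read them. The 33 protein-coding genes examined here are the semaphorins (20 SEMA genes), the plexins (9 PLXN genes), the plexin domain-containing receptors PLXDC1 and PLXDC2, and the neuropilins NRP1 and NRP2, chosen by symbol from the 58051 genes listed in each library. They were measured by RNA-seq in 18 libraries from the established human cell line THP-1, leukaemic monocytes that become macrophage-like under the phorbol ester PMA. The series compared raised with blocked Notch signalling under IL-4, a cytokine that drives alternative macrophage activation. Of the 33 genes, 26 were detected, meaning a group mean of at least 1 CPM (gene count scaled to a common library size) in at least 1 group, and 29 had enough counts to be tested.

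The tested constructs were NIC1, the MYC-tagged intracellular domain of NOTCH1, the signal-active fragment of that receptor, and DNMAML, a dominant-negative form of the co-activator Mastermind-like that blocks transcription through Notch. IRES, the empty vector, was the control for both. All 3 were delivered as MSCV retroviral vectors carrying GFP, and cells were sorted for GFP, so every group holds transduced cells. PMA at 5 ng/ml for 48 h was given in all 6 groups, which leaves no group without it. Each construct was then sampled with IL-4 at 20 ng/ml for 3 h and unstimulated, with 3 libraries a group from experiments numbered 1, 2 and 3. Nothing in the labels says that libraries of a group came from separate cultures or transductions, so the p-values rest on variation among these libraries, part of which may be technical.

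Class 3 semaphorins are secreted and mostly act through a complex of a neuropilin, which binds the ligand, and an A-type plexin, which signals. Classes 4 and 6 span the membrane and bind plexins directly, class 4 mostly the B type and class 6 the A type, while SEMA7A is held on the outer membrane by a lipid anchor and binds plexin C1 and beta 1 integrins. Plexins carry a cytoplasmic domain that switches off small GTPases of the Ras and Rap kind, which loosens integrin adhesion and reshapes the actin skeleton. In myeloid cells these proteins are known for setting migration, contact with T cells and cytokine output.

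Library depth, as the sum of gene counts, ran from 12410668 to 15099788. NOTCH1, whose count can include reads from the NIC1 construct, averaged 395 ± 49.3 CPM in NIC1 cells with IL-4 and 287 ± 55.3 in unstimulated NIC1 cells. It averaged 231 ± 38.9 and 188 ± 40.4 in IRES cells, and 187 ± 43.5 and 151 ± 23.4 in DNMAML cells, with and without IL-4 (SD, n = 3 each). HES4, a Notch target, averaged 15.1 ± 3.24 CPM in unstimulated NIC1 cells and 2.65 ± 0.304 in unstimulated DNMAML cells, against 3.41 ± 1.27 in unstimulated IRES cells. For unstimulated DNMAML over IRES the log2 difference of HES4 was -0.36 ± 0.291 (SE, edgeR unadjusted p = 0.228), so a lower level in unstimulated DNMAML cells was not shown. With IL-4, HES4 ran from 1.99 to 2.17 CPM in DNMAML cells and from 2.36 to 4.80 in IRES cells. The log2 difference there was -0.93 ± 0.294 (edgeR unadjusted p = 0.00598). Its adjusted p was 0.101 in an edgeR model that blocks on the experiment number. MAML1, whose count can include reads from the DNMAML construct, averaged 131 ± 8.07 CPM in unstimulated DNMAML cells against 88.8 ± 9.31 in unstimulated IRES cells. All 13 myelomonocytic markers listed were at 1 CPM or more, and their summed level ran from 1610 to 1899 CPM. Among markers of other cell types, VWF and CLDN5 of 6 endothelial genes, TRAC of 5 T cell genes, CD79A of 3 B cell genes, CDH1 of 4 epithelial genes and 3 collagens of 5 fibroblast genes reached 1 CPM. DNMAML with IL-4 replicate 3 and unstimulated IRES replicate 3 stood apart with 25322 and 23179 genes detected, against 21067 to 21557 in the other 16 libraries, and results that change without them are marked.

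To show which parts of the system these cells transcribe, levels were set side by side per kilobase (kb) of merged exon, because raw CPM rises with transcript length. Merged exons join all annotated transcripts of a gene and can be longer than the mRNA made, so ranks and shares per kb are approximate. The merged length was 3800 bases for SEMA7A and 13896 for NRP2. PLXNB2, a receptor for class 4 semaphorins, had the highest level of the plexins, between 71.7 and 83.4 CPM per kb in the 6 group means, and held 38.6% to 45.1% of the summed plexin level. PLXNA1 held 19.4% to 24.6%, PLXND1 15.1% to 19.6% and PLXNB1 11.2% to 15.8%. Among the ligands a single gene predominated: SEMA7A, between 54.2 and 106 CPM per kb, held 53.9% to 72.2% of the summed semaphorin level. SEMA4C and SEMA4B came next, at 13.3 to 15.1 and 8.15 to 9.58 CPM per kb. NRP2 stood at 16.8 to 24.0 CPM per kb, and NRP1 at 3.19 to 4.43.

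Plexin levels below those 4 were lower. PLXNA3 lay at 4.58 to 4.85 CPM per kb, PLXNC1, the SEMA7A receptor, at 1.87 to 5.84, and PLXNB3 and PLXNA2 below 1. All 6 class 4 semaphorins were detected, against 4 of 7 in class 3 (SEMA3A, SEMA3B, SEMA3D and SEMA3F), 3 of 4 in class 6 (SEMA6B, SEMA6C and SEMA6D) and neither class 5 gene. SEMA6D was detected in the 3 unstimulated groups and not in the 3 groups with IL-4. The genes below 1 CPM in every group were SEMA3C, SEMA3E, SEMA3G, SEMA5A, SEMA5B, SEMA6A and PLXNA4, of which PLXNA4, SEMA3E, SEMA5B and SEMA6A had too few counts to test. PLXNA4 had 0 to 4 reads in a library.

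**Figure D1:**
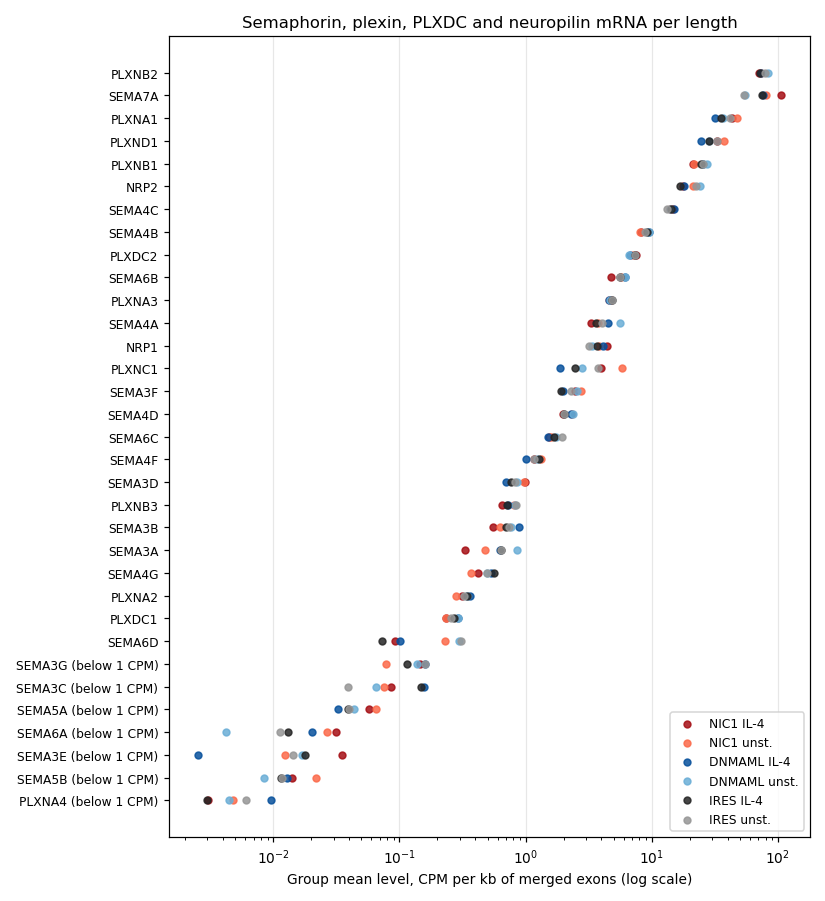
Mean level of each of the 33 genes in each of the 6 groups (n = 3 libraries a group), in CPM per kb of merged exon on a log axis, ordered by the mean over groups. PLXNB2 and SEMA7A lie at the top above 50 CPM per kb, and the 7 genes below 1 CPM in every group lie at the bottom.

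Tests were run with edgeR over 15037 genes, and a gene is called here when its Benjamini-Hochberg adjusted p was under 0.05. Where a second model that blocks on the experiment number changed a call for one of the 29 genes, its adjusted p is given as the blocked value. For partner genes outside these families the block is given by counts only. With IL-4 against without, 1 of 29 tested genes was called in NIC1 cells, 2 in DNMAML cells and 2 in IRES cells, each lower with IL-4. That is 3.45%, 6.90% and 6.90% of the 29, against 3.05%, 3.28% and 2.93% of all genes tested, and 0.798%, 1.12% and 0.911% when only lower genes are counted. The gene called in all 3 constructs was PLXNC1, and SEMA6D was the other in DNMAML and IRES cells. With the block the counts were 4, 7 and 7 of 29 (13.8%, 24.1% and 24.1%), against 8.80%, 9.95% and 9.04% of all genes. The 7 in IRES cells include SEMA3C, which passed the filter on counts only through libraries with IL-4, where it is high. The median IL-4 change of the 29 genes was -0.0489, -0.101 and -0.00365 (log2), against -0.0106, -0.00919 and -0.00489 over all genes.

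Between constructs, NIC1 against DNMAML called 2 of 29 genes without IL-4 and 2 with IL-4, in each case PLXNC1 and PLXND1 (6.90%), both higher in NIC1 cells. The share of all genes called was 1.65% unstimulated and 1.44% with IL-4, with 1.04% and 1.08% higher. NIC1 against IRES called 1 gene in each condition, PLXNC1 (3.45%, higher), against 0.233% of all genes unstimulated and 0.200% with IL-4, with 0.186% and 0.173% higher. Blocked, NIC1 against DNMAML called 9 and 7 of the 29 genes (all genes 13.8% and 12.6%), and NIC1 against IRES called 3 and 5 (all genes 5.37% and 5.44%). The median log2 difference of the 29 genes was -0.0287 and -0.0385 for NIC1 over DNMAML (all genes -0.00114 and -0.00327), and -0.0633 and -0.0333 for NIC1 over IRES (all genes -0.000434 and -0.00301), without and with IL-4 in that order.

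DNMAML against IRES called 0 of 29 by edgeR without and with IL-4, where 0% of all genes were called. At an unadjusted p under 0.05 there were 3 genes unstimulated (all genes 2.47%) and 2 with IL-4 (all genes 2.37%), and DESeq2 called 0 in each. The block called PLXNC1 alone in unstimulated cells (all genes 0.146%) and 0 of 29 with IL-4 (all genes 0.0931%). No difference in IL-4 response between constructs was called by edgeR, by the block or by DESeq2, nor was one called for any of all the genes by edgeR or the block (0%). At an unadjusted p under 0.05 by edgeR, 1 of 29 genes, SEMA3C, differed in its IL-4 response between NIC1 and IRES cells (all genes 0.805%), a gene that passed the filter on counts only through libraries with IL-4, where it is high. None of the 29 did so between DNMAML and IRES (0, all genes 0.652%) or between NIC1 and DNMAML (0, all genes 1.42%). As in any bulk RNA measurement, fewer cells with a transcript and less of it in each cell cannot be told apart.

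Among the receptors, plexin C1, D1 and A1 transcripts were the ones that ranked NIC1 above IRES above DNMAML in group means, both with and without IL-4. The bases just before their transcription starts are shown because these genes moved together. They were taken from the RefSeq promoter table (GRCh38.p14), 5′ to 3′ on the gene's own strand, and capitals mark GGGCGG, the GC box bound by SP factors, read on either strand. The PLXNC1 window is chr12:94148327-94148576, plus strand, 250 bases. The PLXND1 stretch is chr3:129606819-129606926, minus strand, cut to the 108 bases that precede both the RefSeq and the GENCODE start. The PLXNA1 window is chr3:126982865-126983114, plus strand, 250 bases before a RefSeq start that lies 5479 bases upstream of the GENCODE gene start.
PLXNC1: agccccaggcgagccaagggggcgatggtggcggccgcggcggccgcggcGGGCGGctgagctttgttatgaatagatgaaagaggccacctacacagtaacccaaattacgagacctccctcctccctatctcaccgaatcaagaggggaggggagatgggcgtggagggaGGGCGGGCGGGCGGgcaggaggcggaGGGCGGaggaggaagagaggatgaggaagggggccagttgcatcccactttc
PLXND1: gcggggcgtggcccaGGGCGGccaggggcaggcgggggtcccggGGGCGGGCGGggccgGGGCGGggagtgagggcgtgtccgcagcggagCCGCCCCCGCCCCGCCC
PLXNA1: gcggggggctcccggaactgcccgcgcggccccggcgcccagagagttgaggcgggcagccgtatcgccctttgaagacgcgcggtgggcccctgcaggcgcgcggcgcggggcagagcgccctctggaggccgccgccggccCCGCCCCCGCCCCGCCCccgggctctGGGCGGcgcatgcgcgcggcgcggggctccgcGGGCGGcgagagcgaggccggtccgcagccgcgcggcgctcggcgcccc

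GGGCGG occurred 5 times in the PLXNC1 window, 7 times in the PLXND1 stretch and 5 times in the PLXNA1 window, with some copies overlapping. The GC content was 65.2% for PLXNC1, 88.9% for PLXND1 and 84.4% for PLXNA1. Over 250 bases, none of the 3 held TGGGAA, the core bound by the Notch effector RBPJ, nor TTC followed by GAA at a distance of 4 or of 3 bases, the spacings bound by STAT6 and by STAT factors in general, on either strand. Among all 35116 windows of that length in the table, 42.6% held GGGCGG, 20.9% TGGGAA, 5.38% the STAT pair at 4 bases and 6.57% at 3 bases. A total of 49 windows matched 28 of the 33 genes, and 30 of them held GGGCGG, 5 TGGGAA, 0 the STAT pair at 4 bases and 1 at 3 bases. A match describes letters and not a binding site, and a missing match covers only these windows.

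PLXNC1 (ENSG00000136040, chromosome 12, 94148723 to 94307675 on the plus strand of GRCh38), a receptor for SEMA7A, showed the widest construct difference of the called genes. In experiments 1, 2 and 3 it had 63.3, 57.4 and 52.6 CPM in unstimulated NIC1 cells and 30.1, 27.1 and 26.1 in unstimulated DNMAML cells, against 39.4, 32.3 and 38.9 in unstimulated IRES cells. With IL-4 it had 46.2, 34.6 and 36.7 CPM in NIC1 cells and 19.4, 17.0 and 19.0 in DNMAML cells, against 26.8, 20.9 and 24.9 in IRES cells. Within each condition all NIC1 libraries were above all IRES libraries, and all DNMAML libraries were below them. Every IL-4 library was below every unstimulated library of its construct.

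PLXNC1 in NIC1 over DNMAML cells differed by 1.06 ± 0.124 (log2, SE) unstimulated (edgeR adjusted p = 0.000386). With IL-4 the difference was 1.09 ± 0.126 (0.000388), and both calls stood with any library of the 2 groups left out. Over IRES cells it was 0.65 ± 0.122 unstimulated (0.0398, blocked 3.15e-05), and in the IL-4 groups 0.70 ± 0.124 (0.0322, blocked 2.17e-05). The unstimulated call against IRES was lost without any single library, with adjusted p from 0.0809 to 0.209, and without the pair of libraries that stood apart (0.135). The call with IL-4 was lost without that pair (0.0727) and without each library (0.0715 to 0.192) except NIC1 replicate 2. In a fit on only the groups compared both calls against IRES were lost (0.268 unstimulated and 0.390 with IL-4). DNMAML over IRES cells gave -0.41 ± 0.124 unstimulated (1, blocked 0.0430), and in the IL-4 groups -0.39 ± 0.126 (1, blocked 0.0946).

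IL-4 lowered PLXNC1 in all 3 constructs. The log2 change was -0.56 ± 0.122 in NIC1 cells (edgeR adjusted p = 0.0151), -0.59 ± 0.126 in DNMAML cells (0.0136) and -0.61 ± 0.124 in IRES cells (0.00986), lower in 3 of 3 experiments each. Those changes differed between NIC1 and IRES by 0.05 ± 0.174 and between NIC1 and DNMAML by 0.03 ± 0.174, neither called. In NIC1 cells the call was lost without unstimulated replicate 1 (0.0958) or IL-4 replicate 2 (0.0956) or 3 (0.0890), and in DNMAML cells without unstimulated replicate 1 (0.0741) or IL-4 replicate 2 (0.0723). In IRES cells it was lost without unstimulated replicate 1 (0.0592) or 3 (0.0605) or IL-4 replicate 2 (0.0633). Without the pair that stood apart, the adjusted p was 0.0332 in NIC1, 0.0631 in DNMAML and 0.0763 in IRES cells, and in fits on only the groups compared it was 0.0726, 0.0418 and 0.115 in the same order.

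The exons of PLXNC1 overlap CEP83 and AC073655.2 on the other strand over 399 bases, and whether the counting used strand is not given in the sources used here. CEP83, a centrosomal protein gene, averaged 16.4 ± 1.53 CPM in unstimulated NIC1 cells and 12.9 ± 3.04 in unstimulated DNMAML cells, against 14.7 ± 2.36 in unstimulated IRES cells (SD, n = 3 each). Its log2 difference of NIC1 over DNMAML was 0.35 ± 0.193 unstimulated (edgeR adjusted p = 0.470, blocked 0.0461). The part of such reads in the PLXNC1 result was not tested.

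PLXND1 (ENSG00000004399, chromosome 3, 129555175 to 129606818, minus strand), the receptor of SEMA3E, differed in the same direction by less. It had 355, 398 and 348 CPM in unstimulated NIC1 cells and 279, 288 and 272 in unstimulated DNMAML cells, against 315, 342 and 304 in unstimulated IRES cells. With IL-4 it had 330, 333 and 306 CPM in NIC1 cells and 253, 256 and 210 in DNMAML cells, against 274, 290 and 267 in IRES cells. The 3 constructs did not overlap in either condition.

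NIC1 over DNMAML gave a log2 difference in PLXND1 of 0.39 ± 0.0822 unstimulated (edgeR adjusted p = 0.0243), and in the IL-4 groups 0.43 ± 0.0823 (0.0132). The unstimulated call was lost without NIC1 replicate 1 (0.0540) or 2 (0.0991) or DNMAML replicate 1 (0.107) or 3 (0.104). The call with IL-4 was lost without NIC1 replicate 1 (0.0557) or 2 (0.0577), without DNMAML replicate 3 (0.0782), and without the pair that stood apart (0.0908). Both were lost in fits on only the groups compared (0.137 in each condition). NIC1 over IRES gave 0.20 ± 0.0821 unstimulated (0.620, blocked 0.0326), and in the IL-4 groups 0.22 ± 0.0821 (0.576, blocked 0.0142). The IL-4 change was -0.18 ± 0.0820 in NIC1 cells (0.447, blocked 0.0323), -0.22 ± 0.0822 in DNMAML cells (0.237, blocked 0.00623) and -0.21 ± 0.0821 in IRES cells (0.306, blocked 0.0125). In DNMAML cells it was -0.14 without IL-4 replicate 3.

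Summed marker levels of some other cell types moved with these groups. The 6 endothelial markers, of a cell type in which PLXND1 is abundant, summed to 16.6 to 21.1 CPM in NIC1 cells with IL-4 against 21.3 to 27.8 without it, to 15.9 to 17.9 against 20.6 to 23.2 in DNMAML cells and to 11.5 to 15.9 against 16.6 to 21.7 in IRES cells. The 5 T cell markers, of which TRAC alone reached 1 CPM, summed to 97.0 to 113 CPM in unstimulated NIC1 cells and 83.9 to 91.8 in unstimulated DNMAML cells, against 84.5 to 95.3 in unstimulated IRES cells. With IL-4 they summed to 91.3 to 105 CPM in NIC1 and 73.7 to 91.1 in DNMAML cells, against 75.4 to 89.1 in IRES cells. The 3 B cell markers summed to 8.63 to 10.7 CPM in unstimulated NIC1 cells and 6.79 to 7.51 in unstimulated DNMAML cells, against 5.44 to 7.32 in unstimulated IRES cells. With IL-4 they summed to 6.61 to 9.83 CPM in NIC1 and 5.19 to 5.99 in DNMAML cells, against 5.55 to 5.84 in IRES cells. The 4 epithelial markers ran the other way with IL-4, at 2.20 to 3.34 CPM against 0.954 to 1.44 in NIC1 cells, 1.55 to 2.79 against 1.17 to 1.73 in DNMAML cells and 1.68 to 2.10 against 0.504 to 1.60 in IRES cells. The 5 fibroblast markers, at 85.4 to 177 CPM over all libraries, overlapped in each of these comparisons. KDR, an endothelial marker, was at most 0.0956 CPM in any group mean. No marker was at 0 in all libraries, and the part of these transcripts in the PLXNC1 and PLXND1 results was not tested.

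PLXNA1 (ENSG00000114554, chromosome 3, 126988594 to 127037392, plus strand), an A-type plexin that in mouse cells binds SEMA6D and pairs with TREM2 and TYROBP, passed the threshold by edgeR with the block but not without it. It had 472, 577 and 505 CPM in unstimulated NIC1 cells and 352, 447 and 408 in unstimulated DNMAML cells, against 393, 524 and 451 in unstimulated IRES cells. With IL-4 it had 491, 476 and 467 CPM in NIC1 cells and 302, 388 and 350 in DNMAML cells, against 353, 417 and 397 in IRES cells. NIC1 libraries lay above DNMAML libraries in both conditions, and above IRES libraries with IL-4, while without IL-4 NIC1 and IRES overlapped.

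The log2 difference of PLXNA1 for NIC1 over DNMAML was 0.36 ± 0.122 unstimulated (edgeR adjusted p = 0.174, blocked 0.000675) and 0.46 ± 0.122 with IL-4 (0.0766, blocked 3.79e-05; DESeq2 adjusted p = 0.0140). NIC1 over IRES gave 0.30 ± 0.122 with IL-4 (adjusted p = 0.692, blocked 0.00714) and 0.18 ± 0.122 without it (0.844, blocked 0.114). IL-4 gave -0.22 ± 0.122 in DNMAML cells (0.628, blocked 0.0430) and -0.23 ± 0.122 in IRES cells (0.605, blocked 0.0343). In NIC1 cells that change was -0.12 ± 0.122 (0.984, blocked 0.454), and the IL-4 responses were not called different. Single libraries moved the IL-4 change in DNMAML cells to -0.14 without unstimulated replicate 2 and -0.13 without IL-4 replicate 1, and that in IRES cells to -0.12 without unstimulated replicate 2. TYROBP, the adaptor, averaged 151 ± 22.1 CPM in unstimulated NIC1 cells and 123 ± 1.91 in unstimulated DNMAML cells, against 127 ± 10.4 in unstimulated IRES cells (SD, n = 3 each). TREM2 averaged 88.4 ± 38.7 CPM in unstimulated NIC1 cells and 118 ± 44.9 in unstimulated DNMAML cells, against 115 ± 53.2 in unstimulated IRES cells, with the experiment 2 library lowest in each group.

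**Figure D2:**
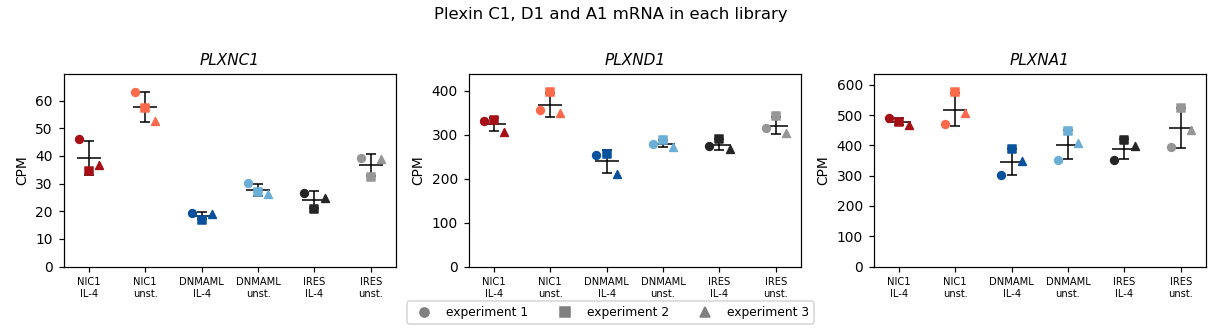
Level in CPM (y axis, from 0) of PLXNC1, PLXND1 and PLXNA1 in each library, by construct and condition, with the mean (long bar) and SD (short bars) of 3 libraries and symbols for the experiment number. NIC1 libraries of PLXNC1 lie between 34.6 and 63.3 CPM and DNMAML libraries between 17.0 and 30.1, and in each condition NIC1 lies highest.

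The B-type plexins ran the other way or showed small differences. PLXNB1 (chromosome 3, 48403854 to 48430051), the SEMA4D receptor, had 154, 233 and 244 CPM in unstimulated NIC1 cells and 256, 285 and 264 in unstimulated DNMAML cells, against 211, 247 and 290 in unstimulated IRES cells. NIC1 over DNMAML gave -0.35 ± 0.181 (edgeR adjusted p = 0.432, blocked 0.0111), with NIC1 lower in 3 of 3 experiments and no overlap, and -0.17 without NIC1 replicate 1. With IL-4 PLXNB1 had 167, 217 and 241 CPM in NIC1 cells and 228, 264 and 259 in DNMAML cells, against 196, 235 and 290 in IRES cells, and the NIC1 over DNMAML value was -0.26 ± 0.180 (0.640, blocked 0.0601).

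PLXNB2 (chromosome 22, 50274979 to 50307627), the highest plexin per kb, had narrow groups. It had 501, 562 and 551 CPM in unstimulated NIC1 cells and 612, 576 and 627 in unstimulated DNMAML cells, against 580, 586 and 560 in unstimulated IRES cells. In the IL-4 groups it had 517, 512 and 531 CPM in NIC1 cells and 542, 535 and 521 in DNMAML cells, against 534, 519 and 519 in IRES cells. Its log2 difference of NIC1 over DNMAML was -0.17 ± 0.0637 unstimulated (edgeR adjusted p = 0.238, blocked 0.0450, DESeq2 0.0398), and its IL-4 change in DNMAML cells was -0.18 ± 0.0637 (0.190, blocked 0.0369, DESeq2 0.0163). In both comparisons the groups did not overlap. PLXNA2, PLXNA3, PLXNB3, PLXDC1 and PLXDC2 were called in no contrast by either model, with group means of 3.84 to 5.00, 53.6 to 56.8, 4.57 to 5.93, 2.17 to 2.72 and 83.7 to 93.6 CPM, in that order.

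Turning to the ligands, SEMA7A (ENSG00000138623, chromosome 15, 74409289 to 74433958, minus strand), which also binds beta 1 integrins and acts on monocytes, was the most abundant semaphorin per kb and varied widely by experiment. Unstimulated NIC1 cells had 245, 436 and 233 CPM and unstimulated DNMAML cells 129, 294 and 200, against 116, 329 and 173 in unstimulated IRES cells. With IL-4, NIC1 cells had 347, 546 and 318 CPM and DNMAML cells 209, 380 and 281, against 200, 398 and 261 in IRES cells. Experiment 2 was the highest in all 6 groups, and within every experiment NIC1 was above DNMAML and above IRES, and IL-4 above unstimulated.

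Over groups, the SEMA7A difference was smaller than that spread. NIC1 over DNMAML was 0.55 ± 0.420 unstimulated (edgeR adjusted p = 0.637, blocked 0.0252) and 0.48 ± 0.419 with IL-4 (0.755, blocked 0.0530). NIC1 over IRES was 0.56 ± 0.420 unstimulated (0.872, blocked 0.0314) and 0.49 ± 0.419 with IL-4 (1, blocked 0.0678). The IL-4 change was 0.41 ± 0.418 in NIC1 cells (0.983, blocked 0.116), 0.48 ± 0.420 in DNMAML cells (0.889, and not called by the block either) and 0.48 ± 0.420 in IRES cells (0.932, blocked 0.0462). Single libraries moved these values in fits without the block, where leaving out 1 library also unbalances the experiments. NIC1 over IRES unstimulated was 0.21 without NIC1 replicate 2, 0.28 without IRES replicate 1 and 1.07 without IRES replicate 2. NIC1 over DNMAML unstimulated was 0.20 without NIC1 replicate 2, 0.30 without DNMAML replicate 1 and 0.88 without DNMAML replicate 2. The IL-4 change in IRES cells was 0.19 without unstimulated replicate 1, 0.98 without unstimulated replicate 2 and 0.17 without IL-4 replicate 2. Of its receptor genes, PLXNC1 fell with IL-4, as above, and ITGB1, the beta 1 integrin, averaged 435 ± 44.7 CPM in NIC1 cells with IL-4 and 479 ± 21.7 without it (SD, n = 3 each). ITGB1 values were 433 ± 69.4 against 471 ± 68.4 in DNMAML cells and 422 ± 63.5 against 455 ± 53.6 in IRES cells, with no change called by edgeR without the block. ITGA1, the alpha chain of its collagen-binding integrin partner, was below 1 CPM in all groups.

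SEMA6D (ENSG00000137872, chromosome 15, 47184101 to 47774223, plus strand), a transmembrane ligand of PLXNA1, fell with IL-4 in DNMAML and IRES cells. Counts in experiments 1, 2 and 3 were 9, 8 and 16 in NIC1 cells with IL-4, against 25, 21 and 29 without it. DNMAML cells had 11, 14 and 12 counts with IL-4, against 37, 28 and 42 without it. IRES cells had 6, 6 and 14 counts with IL-4, against 44, 22 and 40 without it. The groups with and without IL-4 did not overlap in any construct, and the gene is low, at 0.621 to 0.867 CPM in group means with IL-4 against 1.96 to 2.63 CPM without.

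IL-4 changed SEMA6D by -2.07 ± 0.384 in IRES cells (log2, edgeR adjusted p = 0.00446), a call kept with any library of the 2 groups left out and lost in a fit on those 2 groups alone (-2.08, adjusted p = 0.122). In DNMAML cells the change was -1.56 ± 0.365 (adjusted p = 0.0249, blocked 0.000697). That call was lost without unstimulated replicate 1 (0.0660) or 3 (0.130), IL-4 replicate 1 (0.113) or 3 (0.122), and without the pair that stood apart (0.147). In NIC1 cells the change was -1.31 ± 0.382 (adjusted p = 0.0905, blocked 0.00783). The response in NIC1 less that in IRES was 0.77 ± 0.552 and was not called, so a smaller response in NIC1 cells was not shown.

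SEMA3A (chromosome 7, 83955777 to 84492724), the secreted ligand of NRP1 and A-type plexins, was lowest in NIC1 cells. Unstimulated NIC1 cells had 6.23, 3.66 and 3.52 CPM and unstimulated DNMAML cells 8.65, 7.75 and 7.44, against 6.89, 4.68 and 6.38 in unstimulated IRES cells. With IL-4, NIC1 cells had 2.81, 3.23 and 3.20 CPM and DNMAML cells 7.82, 4.26 and 5.71, against 7.87, 5.18 and 4.81 in IRES cells. NIC1 did not overlap DNMAML in either condition, nor IRES with IL-4.

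The log2 difference in SEMA3A for NIC1 over DNMAML was -0.83 ± 0.260 unstimulated (edgeR adjusted p = 0.144, blocked 0.00269) and -0.95 ± 0.269 with IL-4 (0.111, blocked 0.00209, DESeq2 0.0397). Over IRES it was -0.96 ± 0.269 with IL-4 (0.274, blocked 0.00462) and -0.42 ± 0.263 without it (0.824, blocked 0.212). SEMA3A therefore passed the threshold in 3 comparisons with the block and by edgeR in none without it.

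SEMA4A (chromosome 1, 156147366 to 156177752), a ligand on antigen-presenting cells that acts on T cells, had 28.8, 20.8 and 27.2 CPM in unstimulated NIC1 cells and 47.0, 30.6 and 37.8 in unstimulated DNMAML cells, against 35.1, 24.0 and 23.9 in unstimulated IRES cells. With IL-4 it had 26.6, 15.7 and 25.9 CPM in NIC1 cells and 35.8, 24.7 and 31.8 in DNMAML cells, against 33.4, 19.9 and 20.6 in IRES cells. NIC1 over DNMAML was -0.59 ± 0.252 unstimulated (edgeR adjusted p = 0.317, blocked 0.000758) and -0.44 ± 0.253 with IL-4 (0.556, blocked 0.00813), where it was -0.24 without NIC1 replicate 2. NIC1 was lower than DNMAML in 3 of 3 experiments in both conditions, without overlap when unstimulated and with overlap under IL-4. Experiment 2 was the lowest in 5 of 6 groups, unstimulated IRES being the exception.

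SEMA4B (chromosome 15, 90160604 to 90229679), another membrane class 4 semaphorin, ran the same way on tighter values. It had 51.8, 60.9 and 58.5 CPM in unstimulated NIC1 cells and 63.3, 71.3 and 65.3 in unstimulated DNMAML cells, against 57.3, 65.4 and 63.9 in unstimulated IRES cells. With IL-4 it had 58.6, 58.1 and 55.7 CPM in NIC1 cells and 70.5, 68.0 and 62.8 in DNMAML cells, against 66.5, 60.0 and 65.8 in IRES cells. NIC1 over DNMAML was -0.22 ± 0.0773 unstimulated (edgeR adjusted p = 0.192, blocked 0.0399) and -0.22 ± 0.0771 with IL-4 (0.219, blocked 0.0406), with no overlap in either condition.

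SEMA6B (chromosome 19, 4542593 to 4559808), a ligand of A-type plexins, had 22.0, 19.8 and 21.4 CPM in NIC1 cells with IL-4 and 33.3, 19.5 and 29.0 in DNMAML cells with IL-4, against 29.7, 17.2 and 28.0 in IRES cells with IL-4. Without IL-4 it had 24.5, 23.8 and 27.2 CPM in NIC1 cells and 30.0, 22.4 and 29.5 in DNMAML cells, against 25.4, 20.8 and 28.7 in IRES cells. NIC1 over DNMAML with IL-4 was -0.38 ± 0.206 (edgeR adjusted p = 0.519, blocked 0.0433), although experiment 2 did not share the direction and the groups overlapped. It was -0.21 without DNMAML replicate 1 and -0.57 without DNMAML replicate 2.

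SEMA3C (chromosome 7, 80742538 to 80922359), a secreted ligand of neuropilins, lay below the detection level, and it passed the filter on counts through libraries with IL-4 alone, which favours a difference in that direction. IRES cells had 9, 15 and 15 counts with IL-4, against 3, 4 and 3 without it, and DNMAML cells had 10, 11 and 22 with IL-4, against 6, 3 and 8 without it. NIC1 cells had 12, 8 and 3 counts with IL-4, against 7, 6 and 5 without it. The IL-4 change was 1.87 ± 0.493 in IRES cells (edgeR adjusted p = 0.0544, blocked 0.0204), and 0.0399 without IL-4 replicate 1. It was 1.27 ± 0.443 in DNMAML cells (0.194, blocked 0.0816) and 0.21 ± 0.480 in NIC1 cells (0.999, blocked 0.892). The response in NIC1 less that in IRES was -1.67 ± 0.700, in the same direction in 3 of 3 experiments and not called.

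**Figure D3:**
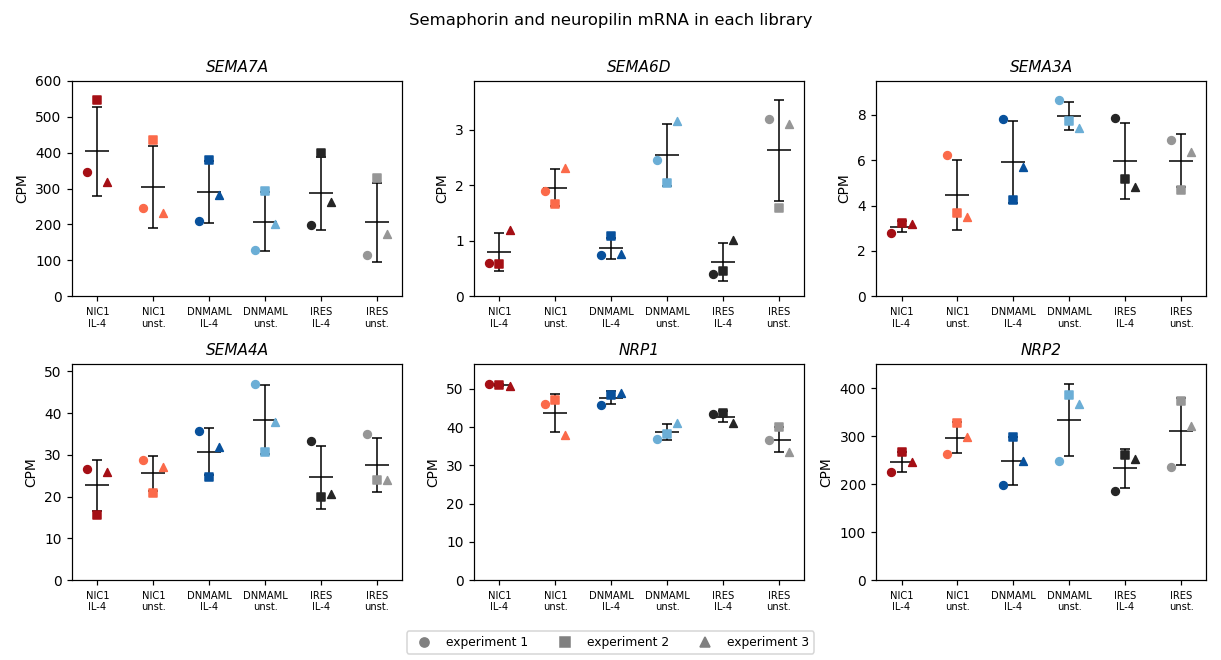
Level in CPM (y axes, each from 0) of 4 semaphorins and both neuropilins in each library, by construct and condition, with the mean and SD of 3 libraries and symbols for the experiment number. SEMA6D lies below 1.2 CPM in every IL-4 library and above 1.5 CPM in every unstimulated one, and SEMA7A is highest in experiment 2 in each group.

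The remaining semaphorins, SEMA3B, SEMA3D, SEMA3F, SEMA3G, SEMA4C, SEMA4D, SEMA4F, SEMA4G, SEMA5A and SEMA6C, were called in no contrast by either model. SEMA4C, a ligand of PLXNB2, kept within 81.7 to 92.9 CPM in group means, and SEMA4D, the ligand of PLXNB1 and of CD72, a receptor on B cells, within 28.0 to 33.7. SEMA3D, a secreted ligand, ran from 12.2 to 14.5 CPM in the experiment 2 libraries, against 1.56 to 5.75 in those of experiments 1 and 3. SEMA3B and SEMA3F, secreted ligands of neuropilins, had group means of 3.18 to 5.15 and 9.24 to 13.3 CPM.

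The co-receptor genes differed with IL-4 in opposite directions, and with the block NRP2 passed the threshold in all 3 constructs and NRP1 in DNMAML cells. NRP1 (chromosome 10, 33177492 to 33336262), which binds SEMA3A and VEGFA, had 51.2, 51.1 and 50.8 CPM in NIC1 cells with IL-4, against 46.0, 47.2 and 38.0 without it. DNMAML cells had 45.9, 48.4 and 49.0 CPM with IL-4, against 36.9, 38.1 and 41.1 without it, and IRES cells had 43.5, 43.6 and 41.1 CPM with IL-4, against 36.6, 40.1 and 33.5 without it. IL-4 was above unstimulated in 3 of 3 experiments in each construct, with no overlap.

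The NRP1 change with IL-4 was 0.22 ± 0.0833 in NIC1 cells (edgeR adjusted p = 0.266, blocked 0.0690), 0.30 ± 0.0835 in DNMAML cells (0.0653, blocked 0.00898, DESeq2 0.0319) and 0.22 ± 0.0838 in IRES cells (0.291, blocked 0.0835). NIC1 over IRES with IL-4 was 0.26 ± 0.0832 (0.421, blocked 0.0465). VEGFA, its growth factor ligand, was at 635 ± 281 CPM in NIC1 cells with IL-4 against 476 ± 223 without it (SD, n = 3 each). The VEGFA values were 560 ± 178 against 441 ± 116 in DNMAML cells and 541 ± 209 against 389 ± 130 in IRES cells. VEGFA was higher with IL-4 in every experiment of each construct, and edgeR without the block called none of these changes. Exons of NRP1 overlap an opposite-strand gene, AL121748.2, over 561 bases.

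NRP2 (chromosome 2, 205681990 to 205798133), which binds SEMA3F, was lower with IL-4. NIC1 cells had 225, 268 and 246 CPM with IL-4, against 263, 328 and 299 without it. DNMAML cells had 198, 299 and 249 CPM with IL-4, against 248, 387 and 368 without it, and IRES cells had 186, 261 and 252 CPM with IL-4, against 236, 373 and 321 without it. IL-4 was below unstimulated in 3 of 3 experiments in every construct, and experiment 1 was lowest throughout, so that the groups overlapped.

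The NRP2 change was -0.27 ± 0.199 in NIC1 cells (edgeR adjusted p = 0.870, blocked 0.0233), -0.43 ± 0.199 in DNMAML cells (0.459, blocked 0.000354) and -0.41 ± 0.199 in IRES cells (0.527, blocked 0.000564). In IRES cells it was -0.26 without unstimulated replicate 2 and -0.27 without IL-4 replicate 1. The construct comparisons of NRP2 were not called by either model. Blocked p-values that compare constructs could be too low should a construct's libraries of 1 number, with and without IL-4, share a culture.

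**Figure D4:**
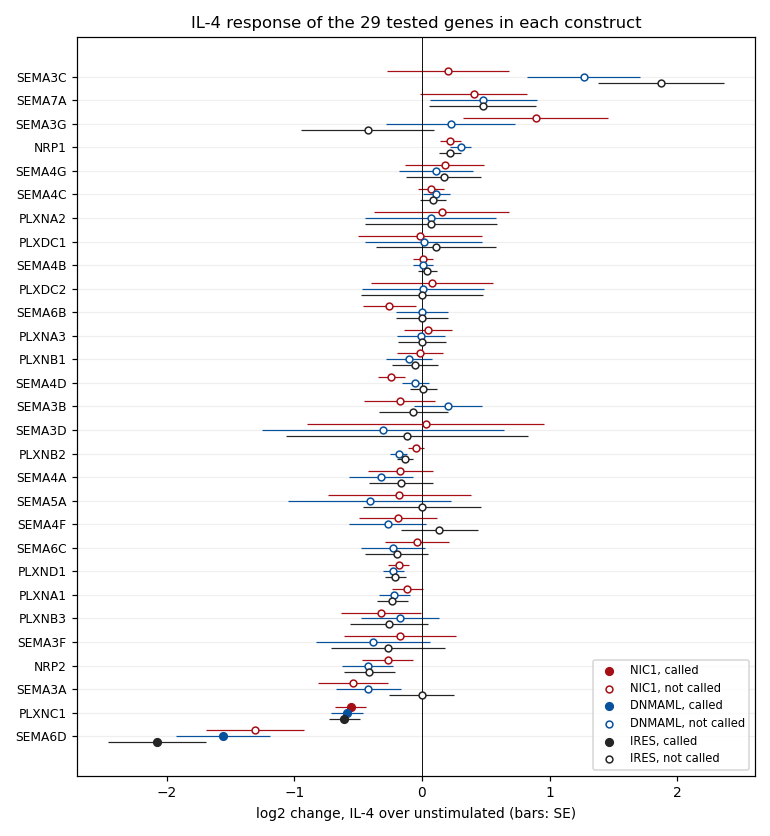
Log2 change with IL-4 over unstimulated (x axis, bars are SE) of the 29 tested genes in NIC1, DNMAML and IRES cells, with filled points where the adjusted p was under 0.05. PLXNC1 is filled in all 3 constructs between -0.56 and -0.61, and SEMA6D is filled in DNMAML and IRES cells.

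To see whether the IL-4 and construct patterns held in separate libraries, comparisons that share no library were set side by side. For NIC1 over DNMAML, the log2 values of the 29 genes without and with IL-4 had a Pearson r of 0.787 and the same sign for 25 of 29, against 0.718 and 72.7% over all 15037 genes. The IL-4 changes in DNMAML and IRES cells had an r of 0.908 (22 of 29 with the same sign, all genes 0.787 and 72.5%). For NIC1 and DNMAML cells it was 0.774 (24 of 29, all genes 0.747 and 66.5%), and for NIC1 and IRES cells 0.602 (21 of 29, all genes 0.779 and 68.7%). NIC1 over IRES without and with IL-4 gave 0.278 (21 of 29, all genes 0.609 and 69.3%). These describe the list and carry no test, since libraries of a number share an experiment. The IL-4 values include SEMA3C, which passed the filter on counts only through libraries with IL-4, where it is high. SEMA3C and SEMA6D had the widest IL-4 changes described above in DNMAML and IRES cells, and r without them was not computed.

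**Figure D5:**
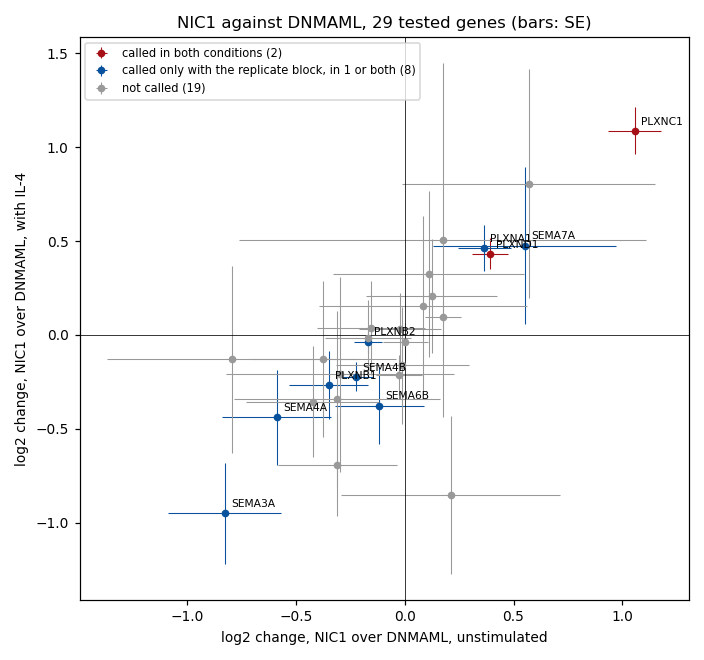
Log2 difference of NIC1 over DNMAML without IL-4 (x axis) and with IL-4 (y axis) for the 29 tested genes, with SE bars. PLXNC1 stands at 1.06 and 1.09 and PLXND1 at 0.39 and 0.43 (red, called in both), and 8 genes are called by edgeR with the replicate block and not without it in at least 1 condition (blue).

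Groups that did not overlap were more frequent than calls. Of the 29 genes, 8 did not overlap between NIC1 and DNMAML cells unstimulated and 8 with IL-4 (27.6%), against 16.3% and 15.7% of all genes. Between NIC1 and IRES cells there were 3 unstimulated (10.3%) and 7 with IL-4 (24.1%), against 10.0% and 10.2% of all genes. Between DNMAML and IRES cells there were 3 and 4, against 6.08% and 5.48%. With IL-4 against without, there were 6 in NIC1, 7 in DNMAML and 6 in IRES cells, against 14.9%, 14.1% and 13.3%. The counts in DNMAML and IRES cells include SEMA3C, which passed the filter only through libraries with IL-4.

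Several of these genes differed between experiments by more than between constructs or with IL-4. Experiment 2 differed from the mean of experiments 1 and 3 by a median over groups of 1.96 (log2) for SEMA3D, 0.98 for PLXNA2, 0.90 for SEMA3F and 0.83 for SEMA7A, each higher in 6 of 6 groups. PLXDC2 (-1.07), SEMA4F (-0.76), SEMA4A (-0.44) and SEMA6B (-0.39) were lower in 6 of 6 groups. The size for SEMA3D exceeded that of 99.6% of tested genes, and the sizes for PLXNB2 and SEMA4D that of 1.48% and 3.13%. For PLXNC1 the median was -0.21 and for PLXND1 0.12, below the construct differences given above.

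Outside the families themselves, 62 genes for co-receptors, other ligands, cytoplasmic signalling and shedding proteases were examined, of which 53 were tested. IL-4 called 1 partner higher and 0 lower in NIC1 cells, 1 and 1 in DNMAML cells, and 1 and 1 in IRES cells, out of 53 (all genes 3.05%, 3.28% and 2.93%). The block called 5 higher and 6 lower in NIC1, 4 and 7 in DNMAML, and 4 and 5 in IRES cells (all genes 8.80%, 9.95% and 9.04%). The gene higher in all 3 was RAP1A, a Rap GTPase of the kind that plexins switch off. It had 353, 373 and 316 CPM in NIC1 cells with IL-4, against 245, 238 and 211 without it, and rose by 0.59 ± 0.103 in NIC1, 0.74 ± 0.104 in DNMAML and 0.70 ± 0.103 in IRES cells (log2, edgeR adjusted p = 0.00296, 0.000342 and 0.000628 in that order). These 3 calls stood with any library of the groups compared left out. RAP1B, another Rap GTPase on the list, named here after its values were seen, was lower with IL-4. It averaged 92.6 ± 8.05 CPM in NIC1 cells with IL-4 against 107 ± 7.45 without it (SD, n = 3 each). The values were 80.3 ± 5.21 against 93.4 ± 5.90 in DNMAML cells and 84.0 ± 8.03 against 93.5 ± 7.14 in IRES cells. EdgeR without the block called no RAP1B change with IL-4.

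DPYSL3, a collapsin response mediator that acts below class 3 semaphorins, fell with IL-4 in DNMAML cells by 0.60 on the log2 scale (edgeR adjusted p = 0.0350), a call lost without unstimulated replicate 1 or 3 or IL-4 replicate 2 or 3 (up to 0.207). Its group means were also lower with IL-4 in NIC1 cells (39.4 against 54.0 CPM) and IRES cells (34.0 against 50.3). Neither pair of groups overlapped, and edgeR without the block called neither change. CDK5R1, the activator of the kinase CDK5, fell in IRES cells by 0.76 (0.0451), lost without replicate 1 or 3 of either condition (up to 0.208). CDK5R1 means were also lower with IL-4 in NIC1 cells (7.96 against 12.1 CPM) and DNMAML cells (6.79 against 10.8). These groups did not overlap either, and edgeR without the block called neither change. NIC1 over DNMAML called PAK1, a Rac-driven kinase, higher by 0.56 ± 0.0985 unstimulated (0.00816, lost without NIC1 replicate 1 or DNMAML replicate 3, up to 0.0603) and by 0.46 ± 0.0984 with IL-4 (0.0287, lost without any single library, 0.0537 to 0.139). FYN, a kinase that associates with A-type plexins, was higher by 1.47 ± 0.333 with IL-4 (0.0369, lost without any single library except DNMAML replicate 2, up to 0.193). FYN means with IL-4 were 5.06 CPM in NIC1, 1.83 in DNMAML and 2.13 in IRES cells. Unstimulated they were 4.60, 2.03 and 2.59 CPM in that order. NIC1 libraries lay above those of both other constructs in each condition, and edgeR without the block called no other of these FYN differences. Without the pair of libraries that stood apart, the adjusted p was 0.226 for DPYSL3, 0.248 for CDK5R1, 0.146 for PAK1 with IL-4 and 0.205 for FYN. In fits on only the groups compared these calls and the unstimulated one of PAK1 were lost as well (0.0628 to 0.294), and the 3 of RAP1A were kept. With the block NIC1 over DNMAML called 9 partners higher and 2 lower unstimulated, and 11 and 2 with IL-4, out of 53 (all genes 13.8% and 12.6%). No partner was called for NIC1 or DNMAML against IRES by edgeR, where 7 and 8 genes for NIC1 (all genes 7.12% and 5.95%) and 1 and 1 for DNMAML (all genes 2.47% and 2.37%) had an unadjusted p under 0.05, unstimulated and with IL-4 in that order. DESeq2 called 2 of the 53 partners, for NIC1 against IRES with IL-4, and its share of all genes is not given here. The block called 6 higher and 2 lower for NIC1 in each condition (all genes 5.37% and 5.44%) and 0 for DNMAML (all genes 0.146% and 0.0931%). The receptor tyrosine kinases MET and KDR, co-receptors of B-type plexins and neuropilins, were below 1 CPM in all groups. Other receptor tyrosine kinases on the list were present, named here after their values were seen. In group means ERBB2 stood at 5.64 to 6.93 CPM and MST1R at 2.48 to 3.45. FLT1, a VEGF receptor, averaged 305 ± 112 CPM in NIC1 cells with IL-4 against 135 ± 61.7 without it (SD, n = 3 each). It averaged 122 ± 40.4 against 61.5 ± 27.4 in DNMAML cells and 147 ± 48.2 against 78.9 ± 30.0 in IRES cells. FLT1 was higher with IL-4 in every experiment of each construct. With IL-4 its NIC1 libraries lay above those of the other constructs. None of these FLT1 differences was called by edgeR without the block. With the block, 2 of the 14 tested co-receptors and other ligands or receptors were called higher with IL-4 in NIC1 cells. There were 2 in DNMAML and 1 in IRES cells, with 0 lower in each construct (all genes 8.80%, 9.95% and 9.04%). Blocked values of single partners, FLT1 among them, are not given here.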

How the data were processed

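Each deposited file holds whole-number read counts per gene, made by the authors and not normalized. The build GRCh38.p12 and the programs HTSeq, HISAT2, Trimmomatic, FastQC and DESeq2 are named per the submitters' processing notes. Program versions, the strand setting and the annotation release were not given in the sources used here. Entries that name no gene held 23.8% to 30.9% of reads and were left out of library sizes and tests. Reads of overlapping genes may have been lost or shared: 12 of the 33 genes have exons that overlap those of another gene, 10 of them on the opposite strand.

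Symbols came from the name table given with the files, and exon lengths and coordinates (GRCh38, 1-based) from GENCODE release 29. The genes were kept by filterByExpr, which left 15037 of 58051. Levels are CPM on library sizes multiplied by TMM factors. The test was the quasi-likelihood F test of edgeR 4.0.16 (with limma 3.58.1 in R 4.3.3) in 1 model of 6 group means over 18 libraries, with 12 contrasts and Benjamini-Hochberg adjustment over all 15037 genes in each at 0.05. It was also run on simulated counts, for IL-4 in NIC1 cells alone. Those counts held no experiment effects, so that run cannot show how the test behaves where experiments differ. The standard error was derived from the F statistic, and changes beside a blocked p are those of the unblocked model. The alternatives were the experiment number as a replicate block, DESeq2 1.42.0, size factors by median of ratios (RLE), no filter, only the groups compared, each library left out, and 2 libraries left out, the last chosen after seeing the data. The experiment numbers paired the libraries: deviations from group means correlated in all 45 same-number pairs (Pearson r 0.206 to 0.759), with a median of -0.395 over 90 other pairs. Within groups, libraries differed by more than counting noise (chi-square per degree of freedom 5.29 to 46.1), so none was taken as a duplicate. Other packages were data.table (version 1.17.8) and, for figures, Python 3.11.15 with matplotlib 3.10.9.

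The genes and the lists of partners and markers were chosen with earlier results of these data known. Values in every library are given for genes called in at least 1 contrast by either model. Partners are named where called, where they bind a gene described, or where the text says they were named after their values were seen.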

Additional observations from a re-analysis of the deposited data

Results flagged for a closer look

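SEMA4F, a class 4 semaphorin, was singled out because its difference between NIC1 and IRES cells had opposite directions without and with IL-4 in 3 of 3 experiments. It had 8.66, 6.44 and 9.83 CPM in unstimulated NIC1 cells, against 8.34, 5.91 and 7.55 in unstimulated IRES cells. With IL-4 it had 8.48, 4.91 and 8.47 CPM in NIC1 cells, against 8.99, 5.40 and 9.54 in IRES cells. The log2 difference of NIC1 over IRES without IL-4 less that with IL-4 was 0.32, and the test of that difference in edgeR gave a standard error of 0.427 and an unadjusted p of 0.458. Groups of 3 libraries were not examined for outlying samples.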

How the results depend on the processing

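Counts of the 29 tested genes called are given here in the order IL-4 in NIC1, DNMAML and IRES cells, then NIC1 over IRES and NIC1 over DNMAML without and with IL-4, where all 18 libraries gave 1, 2, 2, 1, 1, 2 and 2. The replicate block, whose pairing the data bear out, gave 4, 7, 7, 3, 5, 9 and 7, and 1 in place of 0 for DNMAML over IRES unstimulated. Without a filter the count was 2 for IL-4 in NIC1 cells, 2 for NIC1 over IRES with IL-4, and 3 and 4 for NIC1 over DNMAML without and with IL-4. DESeq2 gave 4 for IL-4 in DNMAML cells, and 3 and 4 for NIC1 over DNMAML without and with IL-4. A fit on only the groups compared gave 0 for IL-4 in NIC1 and in IRES cells, 0 for NIC1 over IRES in each condition and 1 for NIC1 over DNMAML in each condition. Leaving out both libraries that stood apart in genes detected (DNMAML with IL-4 replicate 3 and unstimulated IRES replicate 3), a choice made after seeing the data, the counts were 0 for IL-4 in DNMAML cells, 1 for IL-4 in IRES cells, 0 for NIC1 over IRES in each condition and 1 for NIC1 over DNMAML with IL-4. Leaving out 1 library at a time gave 0 to 1, 0 to 2, 1 to 3, 0 to 0, 0 to 1, 1 to 2 and 1 to 2, and 0 to 0 for DNMAML over IRES in each condition and for the differences in IL-4 response. For IL-4 in IRES cells, the 7 with the block and the 3 without IL-4 replicate 1 include SEMA3C. That gene passed the filter on counts only through libraries with IL-4, where it is high. The cause of these shifts in count was not tested, and fits on fewer libraries have fewer degrees of freedom. Shares of all genes called are given above for the main fit and the block alone. Counts under the other settings therefore cannot be set against all genes. Fits that leave out 1 library carry no block, so they also unbalance the experiments, here and for the single genes above. RLE size factors moved no count by over 1.5 times and the median of all genes by at most 0.0045 (log2). For the 43 pairs of gene and comparison called with or without the block, no log2 change reversed under these alternatives. Changes of the described genes in other comparisons are not covered by that statement, and some near 0 changed sign. The number of genes detected was 26, also on plain CPM and at 2 CPM, and 29 at 0.5 CPM. Counts below about 100 in a group, as for SEMA3C and SEMA6D, limit the precision of their changes.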
